A study of Mus musculus with 6 samples.

Results

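The genes of MHC class II antigen presentation were examined in the gastrocnemius muscle of mice with and without C26 tumors, gene by gene and muscle by muscle. The set was defined by name as 10 genes: the class II chains H2-Aa, H2-Ab1 and H2-Eb1, the peptide exchange chains H2-DMa and H2-DMb1, the invariant chain Cd74, the transactivator Ciita, the endosomal proteases Ctss and Lgmn, and the thiol reductase Ifi30. Of these 10, 8 were among the 13363 genes measured, and H2-Aa and H2-DMb1 were not analysed here. The values were fragments per kilobase of transcript per 1000000 reads (FPKM), which are corrected for transcript length, and all 13363 genes lay above 0 in all 6 muscles. 

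RNA was sequenced from the gastrocnemius, a fast calf muscle, of male mice of the strain Balb/c that were bought at 6 weeks of age and acclimated for 1 week. The C26 group carried a subcutaneous flank tumor grown from 500000 inoculated C26 cells, a mouse colon adenocarcinoma line that causes muscle wasting, and body weight was followed for 15 days. The control mice received no tumor. There were 3 muscles in each group, numbered as C26 replicates 1 to 3 and Control replicates 1 to 3. The labels do not say in so many words that each muscle came from its own mouse, so that the p-values measure the spread between these samples. The extraction text in the labels also names a human cell line, whereas muscle fiber genes were high in all 6 libraries: the 12 fiber markers summed to between 76625 and 114407 FPKM in the C26 muscles and between 169545 and 187419 FPKM in the controls.

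MHC class II molecules are pairs of an α and a β chain that present peptides from endosomes to CD4 T cells. The invariant chain fills the peptide groove during assembly, cathepsins and legumain cut it and the swallowed antigens, DM exchanges the leftover invariant chain fragment for a peptide, and the reductase encoded by Ifi30, known as GILT, opens disulfide bonds of antigens in the same compartment. Class II genes are transcribed through a shared promoter module that binds the RFX complex, CREB and NF-Y and recruits CIITA; dendritic cells, B cells and macrophages carry these genes at high levels, and muscle fibers at very low ones.

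Promoters are shown because class II genes share a promoter module and Ifi30 differed from them in direction between the groups. The sequences are from the RefSeq annotation of GRCm38.p6, a C57BL/6J reference and not the strain of these mice, and each runs 5′ to 3′ up to the base before the transcription start. A window was found for 7 of the 10 members, and the capitals mark the motifs that were searched on both strands.
H2-Eb1 (chr17:34305617-34305866, plus strand): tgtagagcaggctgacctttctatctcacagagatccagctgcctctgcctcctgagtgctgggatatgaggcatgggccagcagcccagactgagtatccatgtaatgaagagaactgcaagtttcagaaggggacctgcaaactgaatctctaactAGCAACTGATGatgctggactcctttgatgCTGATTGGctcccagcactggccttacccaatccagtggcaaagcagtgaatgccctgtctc
H2-Aa (chr17:34287824-34287943, minus strand): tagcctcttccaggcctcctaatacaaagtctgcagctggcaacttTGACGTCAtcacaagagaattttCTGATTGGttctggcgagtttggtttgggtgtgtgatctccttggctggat
H2-DMb1 (chr17:34153071-34153190, plus strand): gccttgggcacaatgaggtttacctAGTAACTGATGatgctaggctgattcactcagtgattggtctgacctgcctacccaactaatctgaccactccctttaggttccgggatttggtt
Ifi30 (chr8:70766664-70766913, minus strand): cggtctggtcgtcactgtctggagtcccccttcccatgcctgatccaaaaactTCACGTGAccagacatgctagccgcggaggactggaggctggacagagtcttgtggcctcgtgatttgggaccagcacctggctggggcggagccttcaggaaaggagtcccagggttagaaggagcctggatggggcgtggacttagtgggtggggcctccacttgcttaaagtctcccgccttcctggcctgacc
Ctss (chr3:95526666-95526785, plus strand): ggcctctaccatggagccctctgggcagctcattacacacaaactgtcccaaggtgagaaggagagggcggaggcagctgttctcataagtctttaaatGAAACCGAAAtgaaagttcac
H2-Eb1 held an X box 92 to 82 bases and a Y box 62 to 55 bases before the start, the order of the class II promoter module. The X box pattern, 11 bases long with some free positions, was found in 0.816% of 32851 promoter windows, and the Y box, CTGATTGG, in 3.83%. H2-Aa held a Y box and a cyclic AMP response element (TGACGTCA, in 1.55% of windows), and H2-DMb1 an X box. Ifi30 held none of these and one palindromic E box (TCACGTGA, in 0.785% of windows), 197 to 190 bases before its start. Ctss held an interferon-stimulated response element core, a pattern of 10 bases found in 2.98% of windows, 21 to 12 bases before its start. The windows of H2-DMa and Lgmn held no match to the 5 motifs. A match describes letters in the reference and does not show that a factor binds there. Variants of a pattern were not counted, such as gtgattgg in the H2-DMb1 window, so a missing match does not show that an element is absent.

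The class II chains were low in every C26 muscle and higher in every control, with 1 control far above the others. H2-Eb1, the β chain of the I-E molecule, was at 1.91, 0.49 and 1.19 FPKM in C26 replicates 1 to 3 and at 9.62, 4.73 and 128.93 FPKM in Control replicates 1 to 3. H2-Ab1, the β chain of I-A, was at 1.97, 0.55 and 0.80 FPKM in the C26 muscles and at 8.98, 3.57 and 121.75 FPKM in the controls. Neither gene overlapped between the groups, and Control replicate 3 held 18.0 times the mean of the other 2 controls for H2-Eb1 and 19.4 times for H2-Ab1. On the scale of log2(scaled TPM + 1), H2-Eb1 differed by -3.32 (SE 1.10, adjusted p = 0.0582) and H2-Ab1 by -3.23 (SE 1.14, adjusted p = 0.0694) with limma and Benjamini-Hochberg adjustment over all genes, so that neither passed 0.05 with all 6 muscles. Without Control replicate 3 the differences were smaller and passed: -1.99 (adjusted p = 0.0233) for H2-Eb1, a 3.96-fold lower level, and -1.85 (adjusted p = 0.0328) for H2-Ab1, a 3.60-fold lower level. Without Control replicate 2 both passed as well (adjusted p = 0.0428 for each in limma). In bulk muscle, fewer cells that carry a gene and less RNA per cell cannot be told apart.

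**Figure D1:**
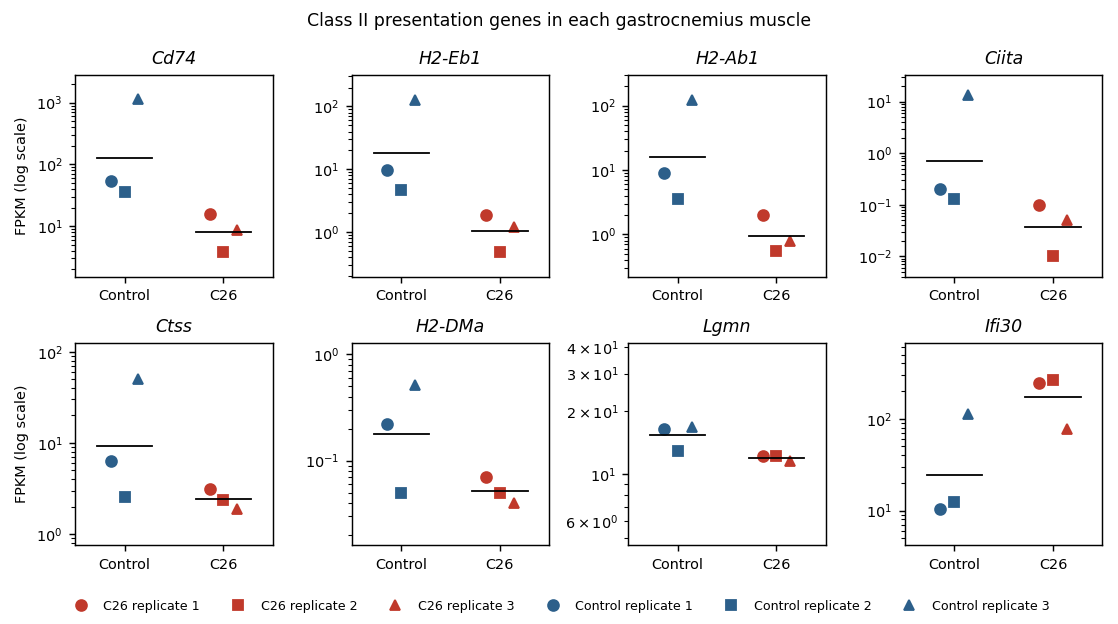
Levels of the 8 members in each muscle, in FPKM on a log axis that differs between panels; blue marks are controls, red marks C26 muscles, the marker shape gives the replicate number and the black bar is the geometric mean of the group. Control replicate 3, the blue triangle, was the highest point for 7 of 8 genes, and Ifi30 was the gene whose C26 muscles lay above Control replicates 1 and 2.

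Cd74, the invariant chain, followed the class II chains at a higher level. It was at 15.49, 3.79 and 8.69 FPKM in the C26 muscles and at 53.62, 35.16 and 1143.01 FPKM in the controls, without overlap. The difference was -3.70 on the log2 scale (SE 1.28, adjusted p = 0.0648 in limma) with all muscles, and -2.18 (adjusted p = 0.0357), a 4.53-fold lower level in C26 muscles, without Control replicate 3, the one muscle whose removal made it pass. Cd74 kept a narrow ratio to the chains while their levels ranged widely: Cd74 over H2-Eb1 lay between 5.57 and 8.87 in all 6 muscles, and H2-Ab1 over H2-Eb1 between 0.672 and 1.12. H2-Ea, the α chain of I-E, is no member of the set. It is annotated as a transcribed pseudogene in the C57BL/6J reference, which is not the strain of these mice. It was at 7.74, 1.42 and 4.61 FPKM in the C26 muscles and at 27.13, 16.83 and 452.88 FPKM in the controls (adjusted p = 0.0632, and 0.0475 without Control replicate 3, in limma), and its ratio to H2-Eb1 lay between 2.82 and 4.05. These ratios share their library and say nothing of the cells that carried the RNA.

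Ciita, the transactivator that class II genes depend on, was close to the lower end of the file in 5 of the 6 muscles. It was at 0.10, 0.01 and 0.05 FPKM in the C26 muscles and at 0.20, 0.13 and 13.43 FPKM in the controls. The groups did not overlap, but the difference of -1.54 (SE 1.06, adjusted p = 0.287 in limma) shrank to -0.20 (adjusted p = 0.304) without Control replicate 3; a pseudocount of 1 flattens differences between values this low. With a pseudocount of 0.1 the log2 difference was -2.87 (adjusted p = 0.175 in limma). H2-DMa, the α chain of the DM exchange factor, was at 0.07, 0.05 and 0.04 FPKM in the C26 muscles and at 0.22, 0.05 and 0.51 FPKM in the controls, and the groups overlapped (log2 difference -0.31, adjusted p = 0.248 in limma, and -1.06 with a pseudocount of 0.1, adjusted p = 0.149). In no muscle did H2-DMa rise above 1 FPKM.

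The proteases of the set did not differ by the test. Ctss, cathepsin S, which trims the invariant chain in antigen-presenting cells, was at 3.13, 2.39 and 1.89 FPKM in the C26 muscles and at 6.41, 2.59 and 49.68 FPKM in the controls. Its groups overlapped only through the low value of Control replicate 2, and the log2 difference was -1.59 (SE 0.90, adjusted p = 0.207) with all muscles and -0.50 (adjusted p = 0.279) without Control replicate 3 in limma. Lgmn, legumain, an asparaginyl endopeptidase, was the most even gene of the set at 12.17, 12.27 and 11.54 FPKM in the C26 muscles, compared with 16.47, 12.98 and 16.75 FPKM in the controls. The groups did not overlap, but the log2 difference was only -0.13 (SE 0.12, adjusted p = 0.438 in limma), and Control replicate 3 held 1.14 times the mean of the other controls. The Lgmn difference was -0.33 (adjusted p = 0.105 in limma) with the FPKM as deposited, -0.39 (adjusted p = 0.0717) with quantile normalization and -0.06 (adjusted p = 0.733) without C26 replicate 3.

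Ifi30 was the one member that was higher in C26 muscles. It stood at 246.49, 266.52 and 76.68 FPKM in the C26 muscles and at 10.45, 12.42 and 112.24 FPKM in the controls, with means of 197 ± 104 and 45.0 ± 58.2 FPKM (SD, n = 3). C26 replicate 3 lay below Control replicate 3, so the groups overlapped. The log2 difference was 2.98 (SE 0.92), a 7.88-fold higher level, with an adjusted p of 0.0481 in limma, just under the threshold. It was 4.01 (SE 0.53), or 16.1-fold (adjusted p = 0.00943), without Control replicate 3, and 3.60 (adjusted p = 0.0401) without C26 replicate 3. Leaving out any 1 of the other 4 muscles ended the call, with adjusted p-values of 0.143 without C26 replicate 1, 0.137 without C26 replicate 2, 0.141 without Control replicate 1 and 0.124 without Control replicate 2. TPM without TMM factors (adjusted p = 0.0548), the FPKM as deposited (0.0782), quantile normalization (0.0855) and a block on the replicate number (0.108) ended it too.

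**Figure D2:**
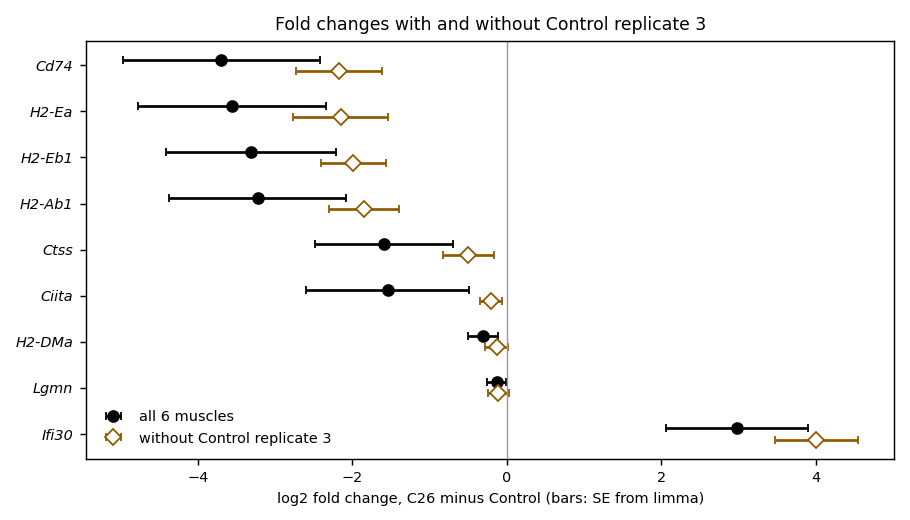
Log2 difference between C26 and control muscles for the 8 members and H2-Ea, with bars of 1 SE from limma; filled circles use all 6 muscles and open diamonds leave out Control replicate 3. Without that muscle the class II chains and Cd74 moved from between -3.70 and -3.23 to between -2.18 and -1.85, with shorter bars, and Ifi30 rose from 2.98 to 4.01.

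Cd74 was the highest member in each control and Ifi30 the highest in each C26 muscle. In Control replicate 1 the order ran from Cd74 at 53.62 FPKM through Lgmn at 16.47, Ifi30 at 10.45, H2-Eb1 at 9.62 and H2-Ab1 at 8.98 to Ctss at 6.41 FPKM, and H2-Eb1 and H2-Ab1 differed by less than the spread over the controls. H2-Eb1 and H2-Ab1 stood below Lgmn in all muscles except Control replicate 3. Within a muscle, the ratio of Ifi30 to Cd74 in FPKM was 15.9, 70.3 and 8.82 in the C26 muscles, against 0.195, 0.353 and 0.0982 in the controls, without overlap. Expressed as the log2 level of Ifi30 minus the mean log2 level of H2-Ab1, H2-Eb1 and Cd74, a value that cancels most of the scaling between libraries, the C26 muscles stood at 5.73, 7.26 and 4.81 (mean 5.93 ± 1.24, SD, n = 3) and the controls at -0.66, 0.49 and -1.22 (mean -0.46 ± 0.87). The difference of 6.39 had a two-sided exact permutation p of 0.1, the smallest that 3 muscles against 3 allow, and it lay between 5.73 and 6.98 with any 1 muscle left out. Control replicate 3, the highest muscle for the chains and for Cd74, was the lowest of all on this measure.

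Read as a set, 1 of the 8 members was called higher and 0 lower in limma with Benjamini-Hochberg adjustment, against 33.8% of all 13363 genes called in either direction, 19.4% higher and 14.5% lower. At an unadjusted p below 0.05 in limma, 3 of the 8 members were lower and 1 was higher, against 22.0% and 25.1% of all genes. Over all genes the split of calls depended on the scaling: it was 2589 higher and 1932 lower, but 1678 higher and 2504 lower with the FPKM as deposited. Without Control replicate 3, 3 members were called lower and 1 higher, against 14.7% and 16.7% of all genes. For 5 of the 8 members every C26 muscle lay below every control, where 34.6% of all genes did so in FPKM and 26.5% after scaling. For 0 members did every C26 muscle lie above every control, against 18.7% of all genes in FPKM and 27.0% after scaling. The median log2 difference was -1.57 over the members and -0.05 over all genes with all muscles, and -0.35 over the members without Control replicate 3.

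The RNA of Control replicate 3 differed from that of the other controls in more than class II genes. On the scale of log2(scaled TPM + 1), a difference over 2 from the mean of the other controls was counted, which leaves out some genes of low level. In that muscle 6 of the 8 members were that far above the mean, against 2.05% of all genes, and 0.389% of genes were as far below it. All 10 markers carried by leukocytes in general, such as Ptprc, which encodes CD45, and Coro1a, did so as well, and they summed to 720 FPKM in Control replicate 3, 8.56 to 18.4 FPKM in the other controls and 4.15 to 9.38 FPKM in the C26 muscles. Of 14 B cell markers 2 were measured, with Cd79b, a chain of the B cell receptor complex, at 134.43 FPKM in Control replicate 3 and at most 0.82 FPKM elsewhere, and Bank1 at 19.24 and at most 0.19 FPKM. Of 11 T cell markers only Cd4 was measured, at 10.54 and at most 0.10 FPKM, while Cd79a, Ms4a1 and Cd3e were not analysed here. The part of lymphoid RNA in the class II levels of Control replicate 3 was not tested. A single muscle carries this difference, so it has no replicate check.

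**Figure D3:**
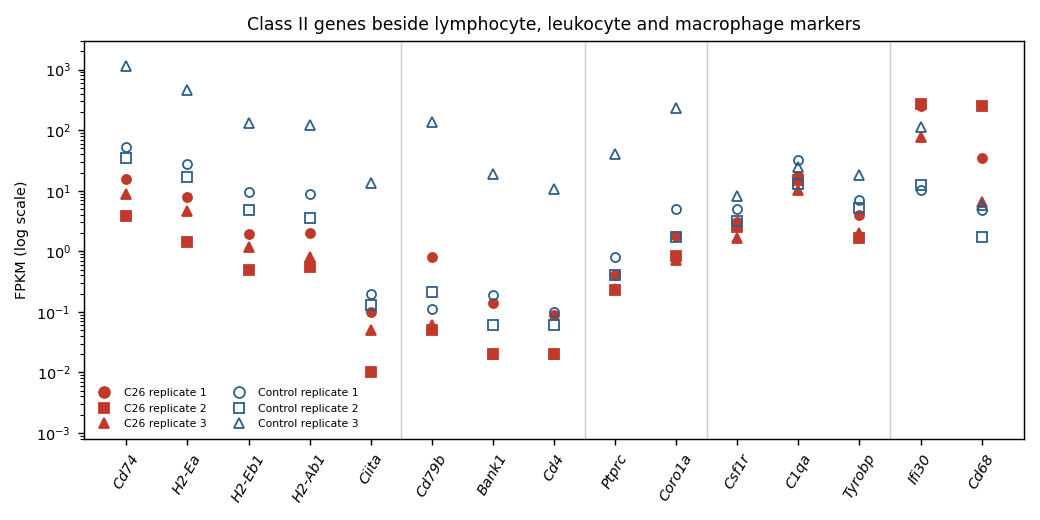
FPKM on a log axis of class II genes, lymphocyte markers (Cd79b, Bank1, Cd4), general leukocyte markers (Ptprc, Coro1a), macrophage markers (Csf1r, C1qa, Tyrobp) and, at the right, Ifi30 beside the macrophage marker Cd68; controls are open and C26 muscles filled. Control replicate 3, the open triangle, stood far above the rest for class II, lymphocyte and leukocyte genes, and at 2.06, 1.11, 2.99 and 1.78 times the mean of the other controls for Csf1r, C1qa, Tyrobp and Cd68.

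Of 18 macrophage markers, 14 had negative differences, and 5 were lower and 1 higher in C26 muscles without overlap in FPKM (3 and 2 after scaling), against 34.6% and 18.7% of all genes in FPKM. All 18 together summed to 151, 343 and 84.1 FPKM in the C26 muscles and to 183, 86.6 and 322 FPKM in the controls, so that the sums overlapped; Cd68 made up most of the sum in C26 replicate 2, and Lyz2, lysozyme, most of it in Control replicate 3 at 187.74 FPKM. C1qa, a complement subunit made by tissue macrophages, was at 17.33, 14.96 and 10.30 FPKM against 32.40, 12.87 and 25.12 FPKM. Of the 18 markers 1 was called lower (5.56%, against 14.5% of all genes) and 0 higher. It was Tyrobp, an adaptor of myeloid receptors, which was lower in C26 muscles by 1.46 on the log2 scale (adjusted p = 0.0481 in limma) and was called in 0 of the 6 fits with a muscle left out. Cd68, a lysosomal protein of macrophages, was at 34.85, 246.65 and 6.46 FPKM in the C26 muscles, against 4.75, 1.75 and 5.77 FPKM in the controls (log2 difference 3.40, adjusted p = 0.0653 in limma), so that the muscle with the most Cd68 also held the most Ifi30 but the least Cd74. Of 10 dendritic cell markers 6 were measured and 1 (16.7%, against 14.5% of all genes), Cd209a, was called lower (log2 difference -0.79, adjusted p = 0.0207 in limma), with all 6 at negative differences. This call was lost without C26 replicate 2 or Control replicate 1 (adjusted p up to 0.0760) and with quantile normalization. Without Control replicate 3, the fit in which the class II chains and Cd74 were called lower, 3 of the 6 were called lower, against 14.7% of all genes: Cd209a (adjusted p = 0.0415 in limma), Fscn1 (0.0356) and Siglech (0.0464). The 6 markers summed to 5.75, 4.37 and 4.11 FPKM in the C26 muscles and to 13.0, 8.15 and 38.6 FPKM in the controls, without overlap, and most of each sum was Fscn1, an actin bundling protein, while the defining markers Itgax, Xcr1 and Ccr7 were not analysed here. Among 8 neutrophil markers 6 were measured, and S100a8 and S100a9, subunits of calprotectin, were called higher by 1.92 and 1.86 on the log2 scale (adjusted p = 0.00858 and 0.00690 in limma), 33.3% of the list against 19.4% of all genes. The other 4, Csf3r, Cxcr2, Mmp8 and Mmp9, were not called, at log2 differences between -0.27 and 0.10. The part of any of these cells in the class II levels was not tested.

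The other genes of the pathway were 56 in 4 lists, of which 50 were measured. They were called at shares close to those of all genes, with 9 higher (18%, against 19.4%) and 7 lower (14%, against 14.5%). Of the 5 other class II chains, H2-Ea was the one measured. The transcription list held 22 genes, of which 2 were called higher (9.09%, against 19.4% of all genes) and 5 lower (22.7%, against 14.5%). Socs1, Irf1, Ifngr2 and Nfyb were among the 5 lower ones. Irf1, a transcription factor that interferon-γ induces and that acts at the Ciita gene, was at 2.40, 2.95 and 1.97 FPKM in the C26 muscles and at 20.03, 7.89 and 20.34 FPKM in the controls, a log2 difference of -2.16 (adjusted p = 0.00631 in limma). The groups did not overlap, and Control replicates 1 and 3 stood at nearly the same level.

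Socs1, which limits interferon signaling and is itself induced by it, was at 0.18, 0.21 and 0.12 FPKM in the C26 muscles and at 8.90, 0.96 and 11.36 FPKM in the controls (log2 difference -2.74, adjusted p = 0.0258, and 0.0552 without Control replicate 3, in limma). Ifngr2, a chain of the interferon-γ receptor, was lower by a log2 difference of -0.91 (adjusted p = 0.0194 in limma), and Nfyb, a subunit of NF-Y, by -0.81 (adjusted p = 0.0488, and 0.0635 without Control replicate 3). Irf2 was higher by 0.76 (adjusted p = 0.0222 in limma). The RFX subunits Rfx5, Rfxap and Rfxank were not called, at log2 differences of -0.47, 0.20 and 0.22 (adjusted p = 0.238, 0.287 and 0.416 in limma). With each of the 6 muscles left out in turn, Irf1 stayed called in 6 of the 6 fits, Ifngr2 in 3, Irf2 in 2, and Socs1 and Nfyb in 1 each, with adjusted p-values of up to 0.0690, 0.0861, 0.0898 and 0.146 for the last 4. Under the 7 alternatives with all muscles, Irf1 and Socs1 stayed called in 7, Ifngr2 in 6, Nfyb in 5 and Irf2 in 4.

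Of 14 measured lysosomal proteases and inhibitors, 3 were called higher (21.4%, near the 19.4% of all genes) and 1 lower (7.14%, against 14.5%). Ctsl, cathepsin L, the invariant chain protease of the thymic epithelium and a known gene of muscle atrophy, was at 393.13, 307.78 and 305.28 FPKM in the C26 muscles and at 92.58, 69.89 and 56.45 FPKM in the controls, a log2 difference of 2.43 (SE 0.23, adjusted p = 0.00225 in limma). Ctsd, the aspartic protease cathepsin D, was at 723.14, 815.71 and 677.45 FPKM against 310.75, 297.93 and 230.52 FPKM, a log2 difference of 1.62 (SE 0.19, adjusted p = 0.00355 in limma). Ctsf, cathepsin F, was higher by 1.61 (adjusted p = 0.00848 in limma). Ctsc, cathepsin C, was lower by a log2 difference of -0.97 (adjusted p = 0.0184 in limma), and Ctsb, cathepsin B, was not called (0.50, adjusted p = 0.144). Ctsc was no longer called without Control replicate 1 (adjusted p = 0.0716 in limma). Ctsl stood at 126 to 162 times Ctss in FPKM in the C26 muscles and at 1.14 to 27.0 times in the controls.

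**Figure D4:**
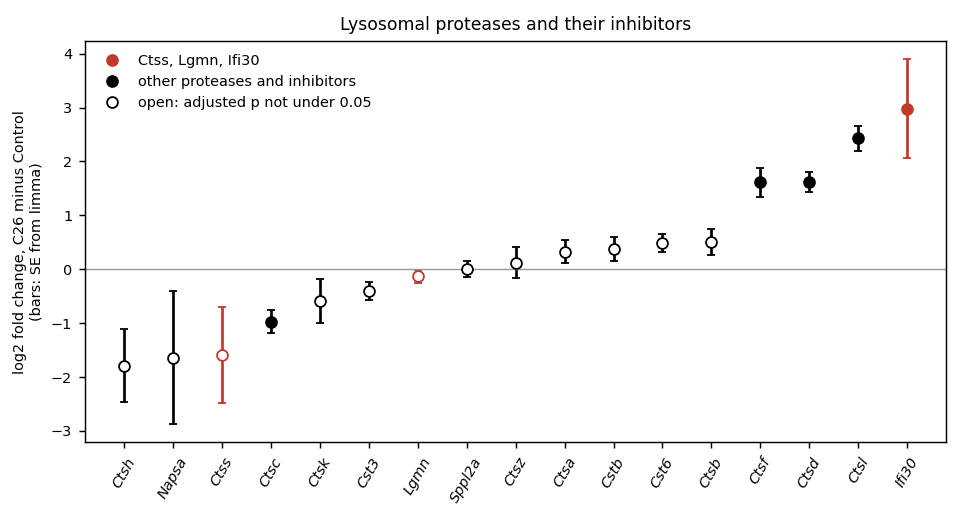
Log2 difference between C26 and control muscles, with bars of 1 SE from limma, for the 14 measured lysosomal proteases and inhibitors (black) and for Ctss, Lgmn and the reductase Ifi30 (red), ordered by value; open circles did not pass an adjusted p of 0.05. Ctsl, Ctsd, Ctsf and Ifi30 were higher and Ctsc lower, and Ctss and Lgmn did not pass.

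In the list of class II turnover and sorting, 13 of 14 genes were measured, 4 were called higher (30.8%, against 19.4% of all genes) and 1 lower (7.69%, against 14.5%). Ubb, a ubiquitin gene, was higher by 1.87 on the log2 scale (adjusted p = 0.00225 in limma), Arl8b, a GTPase of lysosome transport, by 1.58 (adjusted p = 0.00816), Kif5b, a kinesin motor, by 0.96 (adjusted p = 0.0101) and the tetraspanin Cd63 by 0.89 (adjusted p = 0.0231, and 0.0513 without Control replicate 3). The tetraspanin Cd9 was lower by a log2 difference of -0.71 (adjusted p = 0.0217 in limma). With a muscle left out in turn, Ubb, Arl8b and Kif5b were called in all 6 fits, Cd9 in 3 and Cd63 in 1. These genes serve many membrane and protein turnover pathways besides class II.

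Genes outside the lists were ranked by how closely their log2 levels, centred on their mean over the 6 muscles, followed the mean of H2-Ab1, H2-Eb1 and Cd74. The closest 5 were Limd2 (root mean square difference 0.454), the lymphoid chemokine Ccl21a (0.505), the proton channel Hvcn1 (0.573), Septin1 (0.684) and Tmsb10 (0.762), set against a spread of 2.26 for the class II mean itself. All of them were highest in Control replicate 3, as Ccl21a shows at 2.09, 1.03 and 2.16 FPKM in the C26 muscles, against 7.47, 11.73 and 224.31 FPKM in the controls. The closest to Ifi30, whose own spread was 1.89, were Btg2 (0.642), Hmgb2 (0.775), Gm6713 (0.879), Otulin (0.881) and Foxo1 (0.903). Foxo1, a transcription factor of muscle atrophy programs, was at 23.31, 21.24 and 14.58 FPKM in the C26 muscles and at 3.99, 2.97 and 8.96 FPKM in the controls. These rankings describe 6 muscles and were not tested.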

How the data were processed

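Total RNA of 6 gastrocnemius muscles was sequenced as single-end reads of 50 bases. The authors deposited FPKM per gene, estimated with RSEM after alignment with Bowtie2. The study's methods name GRCm38.p5, whereas the submitters' processing notes name mm9, HISAT2 2.0.4, Bowtie2 2.2.5 and RSEM 1.2.12, so gene coordinates other than those of the RefSeq promoters are not given. Read counts were not analysed here and the depth behind each FPKM is unknown, so no counting interval is given. The FPKM carry 2 decimals, so that values near 0.01 are coarse. Reads of Balb/c mice were compared with a C57BL/6J reference, and the effect of this on the polymorphic class II genes was not tested.

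Gene identifiers were matched to symbols for 13327 genes and not for 36. FPKM were rescaled to TPM (sum of 1000000 per muscle), divided by TMM factors (trimming 30% of the log ratios and 5% by mean level, without precision weights) and transformed as log2(value + 1), which understates the change of low genes. C26 and control muscles were compared with limma 3.58.1 in R 4.3.3 (two-sided, Benjamini-Hochberg adjustment over all genes, threshold 0.05), with no covariate. The fit was tested on simulated data. The difference between Ifi30 and the class II mean was compared by an exact permutation test. Alternatives were a pseudocount of 0.1, a minimum mean TPM of 1, quantile normalization, the deposited FPKM, TPM with no TMM factor, a replicate block, an intensity trend and each muscle left out in turn.

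The members and lists were chosen with earlier results of these data known. Named were all members, up to 6 called genes with the largest difference per list, H2-Ea, Rfx5, Rfxap, Rfxank, Ctsb, Ctsd and Ctsl, and the 5 genes of no list most like the class II mean and Ifi30. Cd79b, Bank1, Cd4, Ptprc, Coro1a, C1qa, Csf1r, Cd68, Csf3r, Cxcr2, Mmp8, Mmp9, Lyz2, Fscn1 and Siglech and the 5 promoter motifs were chosen after their values or sequences were seen. Some genes of the lists are counted but not reported by name here.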

Additional observations from a re-analysis of the deposited data

How the results depend on the processing

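No member changed direction under the 7 alternatives with all muscles or with any 1 muscle left out, H2-DMa being below the filter on mean TPM. Of the members, 1 was called higher, and 0 with TPM without TMM, with the FPKM as deposited, with quantile normalization and with the replicate block; 0 to 1 was called higher with a muscle left out. None was called lower, against 1, H2-Eb1, with a pseudocount of 0.1 and 1, again H2-Eb1, with the filter on mean TPM, and 0 to 3 with a muscle left out. Over all genes, 2589 were called higher, 1678 with the FPKM as deposited and 1125 to 3311 with a muscle left out; 1932 were called lower, 1236 with the replicate block and 669 to 2160 with a muscle left out. Of the other pathway genes 7 were called lower, and 2 to 7 with a muscle left out; 9 were called higher, and 6 to 13. The difference between Ifi30 and the class II mean lay between 6.10 and 6.81 under the alternatives with all muscles. The labels do not say that replicate numbers pair the muscles. Deviations of same-numbered muscles from their group means correlated at -0.0394, -0.0843 and -0.112 across genes, and those of unlike-numbered muscles at between -0.100 and 0.125. Such values cannot show whether same-numbered muscles shared a batch, so the block was used as an alternative only. With the block, 1840 genes were called higher, and the paired exact sign-flip permutation p of the Ifi30 difference was 0.25, the smallest possible. Depth is unknown, and values near 0.01 FPKM, such as those of Ciita and H2-DMa, cannot resolve small differences.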

Other observations

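The level of Cd74 per unit of Ptprc, a general leukocyte marker, was not the same in all muscles. The ratio of Cd74 to Ptprc in FPKM was 38.7, 16.5 and 36.2 in C26 replicates 1 to 3, against 66.2, 87.9 and 28.5 in Control replicates 1 to 3. The muscle with the most Cd74, Control replicate 3, thus had the lowest ratio to Ptprc of the controls, within the range of the C26 muscles. This order depends on the marker chosen. Control replicate 3 held 25.7 times the mean FPKM of the other controls for Cd74 and 66.3 times for Ptprc. Over the 10 general leukocyte markers this fold ran from 16.9 for Itgb2 to 110 for Cd52. The ratio of Ctss to Ptprc was 7.83, 10.4 and 7.88 in the C26 muscles, against 7.91, 6.48 and 1.24 in the controls. The ratio of Cd74 to H2-DMa was 221, 75.8 and 217 in the C26 muscles, against 244, 703 and 2241 in the controls. Ptprc itself was at or below 0.81 FPKM in 5 of the 6 muscles, so the ratios to it rest on low values, and none was tested.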
